A study of Rattus norvegicus with 12 samples.

Results

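The 10 genes described here belong to the system that governs loss of muscle protein: the ubiquitin ligase genes *Fbxo32*, *Trim63*, *Fbxo30* and *Fbxo21*, the transcription factor genes *Foxo1*, *Foxo3* and *Klf15*, and the myostatin system with the ligand *Mstn*, its receptor *Acvr2b* and the extracellular inhibitor *Fst*. They were chosen by symbol, with earlier results of these data known. Every probe whose RefSeq accession, without its version, belongs to one of these rat genes was taken, which gave 13 probes for 10 of the 16581 genes named on the arrays. *Fbxo30*, *Fbxo21* and *Fst* had 2 probes each, and the brighter probe on average over the 12 arrays represents the gene unless the other is named. Of these, 12 probes of 9 genes were bright enough to be tested, and the probe of *Mstn* was not.

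RNA was measured in L6 cells, a rat skeletal muscle line whose myoblasts fuse into myotubes when serum is lowered. All 4 groups were wild-type myotubes of this 1 line, kept in horse serum to differentiate and then exposed for 24 h to DMSO alone (control) or to 60 µM of GR24, pinosylvin or resveratrol in DMSO. GR24 is a synthetic strigolactone, a class of plant hormones, and pinosylvin and resveratrol are plant stilbenes, of which resveratrol carries one more hydroxyl group. Each group had 3 arrays from 3 experiments on cells of this line, so the p-values cover the spread between these experiments and not between lines or animals. The sample labels and the methods of the study give differentiation times that differ by a day. The arrays lay on 2 slides, with replicates 1 and 2 of every group on slide 1 and replicate 3 on slide 2. On each array 58.0% to 64.3% of 58717 spots were well above background, and the number of arrays limits the precision.

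Muscle fibres lose mass when ubiquitin ligases tag myofibrillar and regulatory proteins for the proteasome. Foxo factors, which insulin and growth factor signalling keeps out of the nucleus, switch on several of these ligase genes, and glucocorticoids act on the same programme, in part through *Klf15*. Myostatin and activins, which signal through activin type II receptors and Smad proteins, restrain muscle growth, and follistatin, the product of *Fst*, binds and blocks them.

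The label of the cells was set against marker genes. All 11 measured genes of a list for skeletal myotubes, among them *Acta1*, *Myog*, *Ckm*, *Des* and *Cav3*, were well above background on all 12 arrays, as the name myotube requires. Their summed signal, in multiples of the 75th percentile of each array, was 969.5, 1065 and 938 on the control arrays, 414, 399.7 and 385 with GR24, 1063, 1117 and 1031 with pinosylvin and 834, 890.4 and 805 with resveratrol, with *Myh3* the brightest. The GR24 arrays thus lay below all others, and the resveratrol arrays lay below the control arrays. Of the 11 genes, 8 were lower with GR24 than in the control (median log2 fold change -1.14), from *Myog* at -5.83 and *Acta1* at -3.88 to *Tnnt3* at -0.94. With resveratrol 5 were lower and with pinosylvin 2 were higher. Of all tested probes 25.5% were lower with GR24, 8.99% were lower with resveratrol and 8.28% were higher with pinosylvin. The count of 5 for resveratrol was 3 without control replicate 1, pinosylvin replicate 1 or 2 or resveratrol replicate 1. It was 2 without control replicate 2 or resveratrol replicate 3. It was 7 without control replicate 3 and 7 with the replicate number as a block, where 6768 probes passed in place of 4123. The count of 2 for pinosylvin was 6 with the replicate number as a block, where 6946 probes passed in place of 4019. In bulk RNA, fewer cells of a type and less RNA per cell cannot be told apart, and the part of these markers in the results for the 10 genes was not tested.

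Other cell types were followed in the same way. All 5 measured genes of cycling cells (*Mki67*, *Ccnb1*, *Cdk1*, *Ccna2* and *Bub1*) were lower with each compound, with a median log2 fold change of -2.83 for GR24, -1.65 for pinosylvin and -0.81 for resveratrol. Their summed signal, led by *Cdk1*, was 62.8 to 67.6 on the control arrays, 9.01 to 10.2 with GR24, 21.5 to 23.4 with pinosylvin and 34.8 to 38.4 with resveratrol. Of 8 tested genes of undifferentiated or fibroblast-like cells, 5 were lower and 2 higher with GR24, with *Col3a1* at -1.59 and *Id2* at 1.22. With pinosylvin 1 was higher and 3 lower, and with resveratrol 1 was higher and 1 lower. Of all tested probes 31.5% were higher and 25.5% lower with GR24, 8.28% and 8.27% with pinosylvin, and 7.99% and 8.99% with resveratrol. The summed signal of the fibroblast-like list over 10 genes, led by *Fn1*, was 449 to 483 in the control, 230.4 to 266 with GR24, 396 to 409 with pinosylvin and 394 to 414 with resveratrol. Of the adipocyte markers only *Cfd* was tested. It was higher with pinosylvin (0.41, adjusted p = 0.0222) and not past the threshold with GR24 (-0.05) or resveratrol (0.03). With pinosylvin its adjusted p was 0.0747 without control replicate 3 and 0.0853 and 0.0706 without pinosylvin replicates 1 and 2. The markers *Adipoq*, *Fabp4* and *Pparg* were not tested, since each was well above background on too few arrays. The part of these cell types in the results was not tested.

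Of the 9 tested genes, 5 were lower and 1 was higher with GR24 than in the control at an adjusted p under 0.05. Over all 24278 tested probes 57.1% passed in this comparison, 25.5% lower and 31.5% higher, so the count of 6 of 9 lies near the share of all probes. With pinosylvin 1 gene was higher and 0 were lower (0 lower also at an unadjusted p under 0.05 in limma), against 16.6% of all tested probes (8.28% higher and 8.27% lower). With resveratrol 2 were higher and 2 lower, against 17.0% (7.99% higher and 8.99% lower). The median log2 fold change of the 9 genes was -0.33 for GR24, 0.12 for pinosylvin and -0.05 for resveratrol, where over all tested probes it was 0.03, 0.05 and 0.01. These 3 comparisons share the control arrays, so their values are given side by side and not as support for each other. With pinosylvin the count of 1 fell to 0 without control replicate 1 or pinosylvin replicate 1 or 3, and was 2 without control replicate 3 or with the replicate number as a block, where 6946 probes passed in place of 4019. With resveratrol the count of 4 fell to 2 without control replicate 1 or 2 or resveratrol replicate 1 or 2, and stayed at 4 with the replicate block, where 6768 probes passed in place of 4123.

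**Figure D1:**
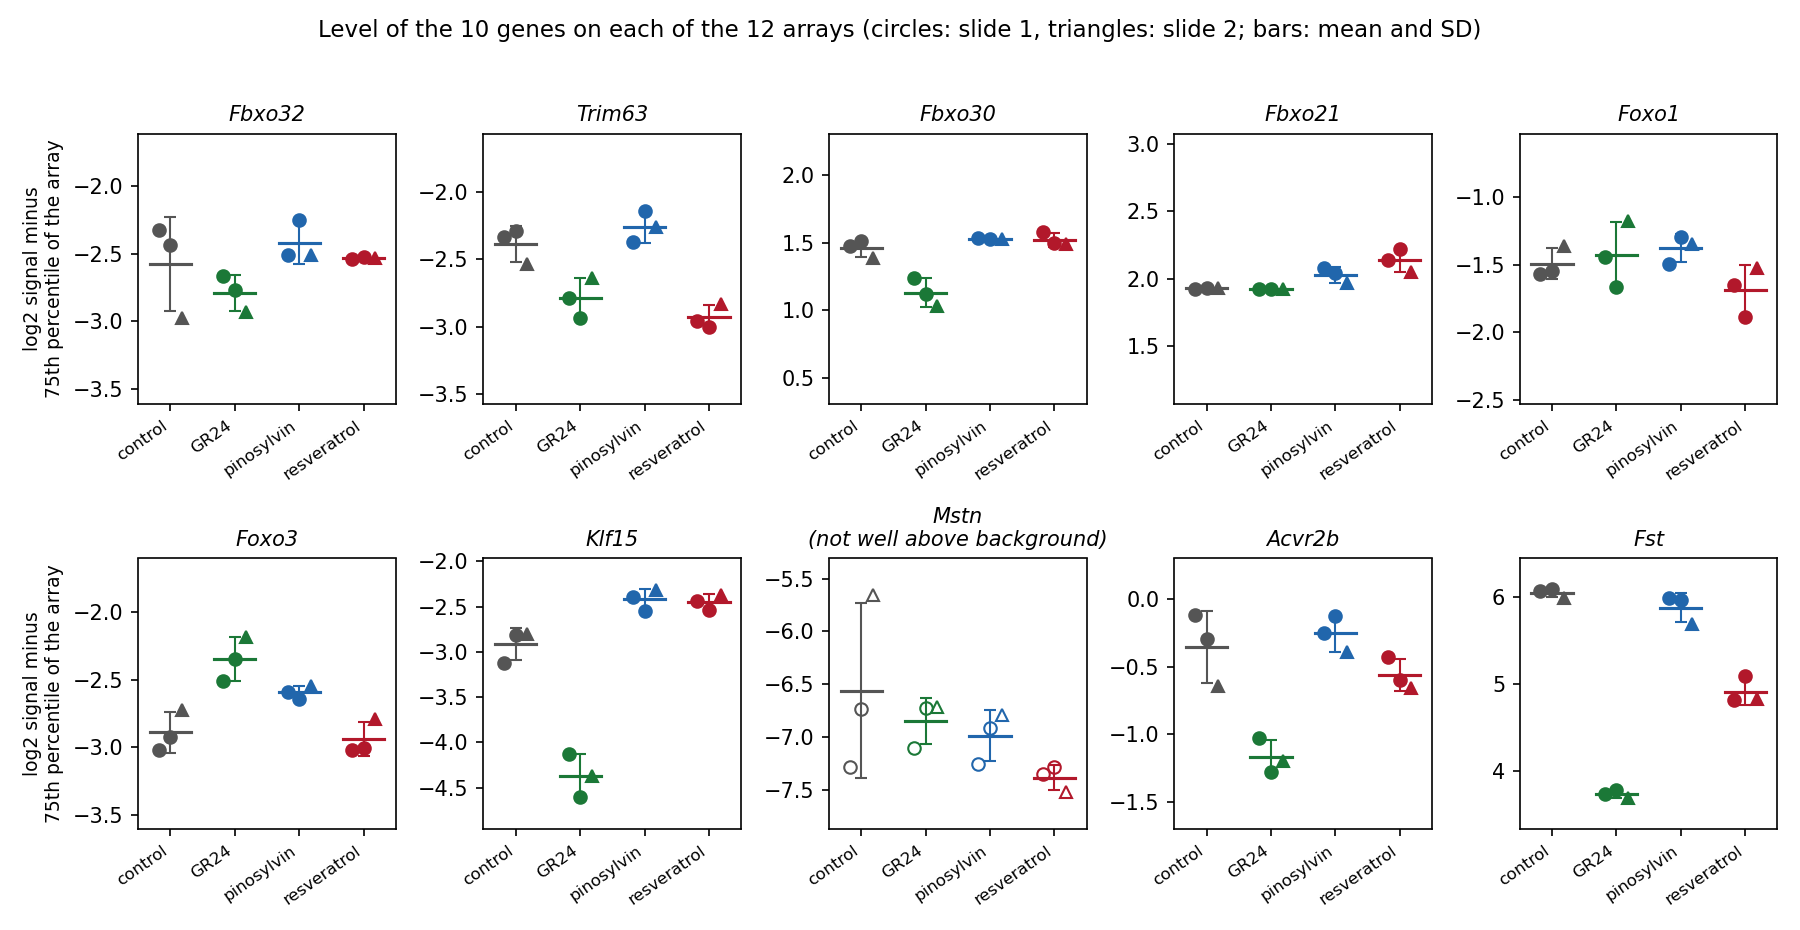
Level of each of the 10 genes on the 12 arrays, in log2 units relative to the 75th percentile of its array, by group, with circles for slide 1, triangles for slide 2, and a horizontal line and bar for the mean and SD of 3 arrays. Each vertical axis spans its own range, and *Mstn*, drawn with open symbols, stayed too near background on every array, while *Fst* on the GR24 arrays lay at 3.68 to 3.77 against 5.99 to 6.10 in the control.

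The ubiquitin ligases come first. *Fbxo32* encodes atrogin, the F-box subunit that brings substrates to a cullin ligase in wasting muscle. Its level, the log2 processed signal less the 75th percentile of that array, was -2.32, -2.43 and -2.98 in control replicates 1, 2 and 3, and -2.67, -2.77 and -2.93 with GR24. It was -2.51, -2.25 and -2.51 with pinosylvin and -2.54, -2.52 and -2.53 with resveratrol. The groups overlapped, and control replicate 3, on slide 2, lay below the GR24 arrays while the other control arrays lay above them. The log2 fold change was -0.21 for GR24 (95% interval -0.55 to 0.13, adjusted p = 0.271), 0.16 for pinosylvin (-0.19 to 0.50, adjusted p = 0.574) and 0.04 for resveratrol (-0.30 to 0.39, adjusted p = 0.912), none past the threshold. Within slides 1 and 2 the difference was 0.0009 and 0.46 for pinosylvin and -0.16 and 0.44 for resveratrol. Within slide 1 the GR24 difference was -0.34 and within slide 2 it was 0.04. Without control replicate 3 it was -0.41 (adjusted p = 0.00809), and over all alternatives the adjusted p ranged from 0.00809 to 0.756, so the call for *Fbxo32* depends on that array.

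*Trim63* encodes a RING-finger ligase of the sarcomere that targets thick-filament proteins. Its level was -2.34, -2.29 and -2.54 in the control, -2.79, -2.93 and -2.64 with GR24, -2.37, -2.14 and -2.26 with pinosylvin and -2.95, -3.001 and -2.83 with resveratrol. All GR24 and all resveratrol arrays lay below all control and pinosylvin arrays. The gene was 1.32-fold lower with GR24 (log2 fold change -0.40, 95% interval -0.62 to -0.17, adjusted p = 0.00618) and 1.46-fold lower with resveratrol (-0.54, -0.77 to -0.32, adjusted p = 0.00454). Pinosylvin gave 0.13 (-0.10 to 0.35, adjusted p = 0.463). Within slide 1 the difference was -0.55 for GR24 and -0.67 for resveratrol, and within slide 2 it was -0.10 and -0.30, so the direction was the same on both slides and the size was smaller on slide 2. Background correction by normexp with the same percentile brought the fold changes to -0.25 for GR24 (adjusted p = 0.0257) and -0.33 for resveratrol (adjusted p = 0.0193), and the deposited table of normalized values gave -0.25 and -0.33. Over all alternatives the adjusted p stayed between 0.00327 and 0.0347 for GR24 and between 0.00336 and 0.0331 for resveratrol.

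*Fbxo30* encodes an F-box protein that is induced in atrophy and that bone morphogenetic protein signalling holds down. Its brighter probe stood at 1.47, 1.51 and 1.39 in the control and at 1.24, 1.12 and 1.03 with GR24, with all GR24 arrays below all control arrays. With pinosylvin it stood at 1.53 on all 3 arrays, and with resveratrol at 1.58, 1.49 and 1.49. The log2 fold change was -0.33 for GR24 (-0.48 to -0.18, adjusted p = 0.00181), 0.07 for pinosylvin (-0.08 to 0.22, adjusted p = 0.553) and 0.06 for resveratrol (-0.09 to 0.22, adjusted p = 0.608). The other probe of *Fbxo30* did not follow with GR24: it stood at 0.11, 0.09 and -0.35 against -0.05, 0.02 and 0.12 in the control, a difference of -0.08 (-0.35 to 0.19, adjusted p = 0.606). The mean of both probes gave -0.20 (adjusted p = 0.0591, where the range over the alternatives was 0.0004 to 0.0591). Whether the probes read different transcripts was not tested.

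*Fbxo21* encodes another F-box protein of the atrophy programme. Its brighter probe stood at 1.93 on each control array and at 1.93, 1.92 and 1.92 with GR24, a log2 fold change of -0.0032 (-0.14 to 0.13, adjusted p = 0.972). All GR24 arrays lay below all control arrays by a very small margin (highest 1.92645 with GR24, lowest 1.92648 in the control). In the deposited table all GR24 arrays lay above all control arrays for this probe. Over all alternatives the fold change for GR24 ranged from -0.0042 to 0.12 and the adjusted p from 0.133 to 0.984. With pinosylvin the brighter probe stood at 2.08, 2.04 and 1.96 (0.10, -0.04 to 0.23, adjusted p = 0.320), and with resveratrol at 2.14, 2.22 and 2.05. All resveratrol arrays lay above all control arrays, by a log2 fold change of 0.21 (0.07 to 0.34, adjusted p = 0.0396). The other probe gave 0.22 for resveratrol (-0.0030 to 0.45, adjusted p = 0.177). This call is near the threshold. The adjusted p was 0.102, 0.0922 and 0.0744 without control replicates 1, 2 and 3, 0.0639 and 0.0554 without GR24 replicates 1 and 2, 0.0521 and 0.0609 without pinosylvin replicates 1 and 2, and 0.097 and 0.142 without resveratrol replicates 1 and 2. Over all alternatives the fold change stayed between 0.17 and 0.25 and the adjusted p between 0.0109 and 0.160.

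Around these 4 genes, 23 of 30 further genes of a list of muscle ubiquitin ligases, ubiquitin and their partners were tested. With GR24 13 were higher and 5 lower, where 31.5% and 25.5% of all tested probes were (median log2 fold change 0.36, where all tested probes had 0.03; 0.38 within slide 1 and 0.25 within slide 2). The largest changes were those of *Trim72*, a membrane repair protein of muscle, *Itch*, a ligase of the *Nedd4* family, *Fbxo31*, an F-box protein, and *Trim55*, a sarcomere ligase related to *Trim63*. *Trim72* was not well above background on any GR24 array and lower than in the control (adjusted p = 3.16e-07), by a size that depends on the treatment of the background: normexp with the 75th percentile gave -1.40 and the deposited table -1.87. *Fbxo31* was higher by a log2 fold change of 1.26 (adjusted p = 6.06e-08) and *Trim55* was lower at -0.93 (adjusted p = 0.0115). *Itch* was higher at 1.38 (adjusted p = 0.0255; 0.81 with normexp and the 75th percentile), with an adjusted p of 0.0675, 0.0511, 0.0532 and 0.103 without control replicates 1, 2 and 3 and GR24 replicate 1. *Trim54*, another sarcomere ligase of that family, was higher at 0.90 (adjusted p = 4.87e-05). The ligases of the list thus went both ways, with *Trim55* and *Trim72* lower beside *Trim63* and *Trim54* higher.

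With pinosylvin 2 genes of that list were higher and 1 lower (8.28% and 8.27% of all tested probes), and with resveratrol 3 were higher and 2 lower (7.99% and 8.99%), at medians of 0.08 and 0.05. *Trim54*, a sarcomere ligase of the same family as *Trim63*, was higher with pinosylvin (1.09, adjusted p = 8.66e-05) and with resveratrol (0.48, adjusted p = 0.0139), and *Trim72* was lower with both (-0.91, adjusted p = 0.0151, and -0.81, adjusted p = 0.0257; -0.54 and -0.52 with normexp and the 75th percentile). For resveratrol the count of 5 was 1 without control replicate 1 or 2, 3 without resveratrol replicate 1, 0 without resveratrol replicate 2 and 2 without resveratrol replicate 3. *Trim54* with resveratrol had an adjusted p of 0.0561 and 0.0502 without resveratrol replicates 1 and 2. *Trim72* with resveratrol had 0.0916 and 0.0697 without control replicates 1 and 2 and 0.0682, 0.0687 and 0.0704 without resveratrol replicates 1, 2 and 3. With pinosylvin *Trim72* had 0.0587 without control replicate 1. Genes without a named probe included *Fbxo40*, *Trim62*, *Nedd4l*, *Cbl* and *Ube2d2*, and *Fbxl22* was not tested.

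Among the transcription factors, *Foxo1* and *Foxo3* encode forkhead proteins that bind the promoters of atrophy and autophagy genes. *Foxo1* stood at -1.57, -1.55 and -1.36 in the control, -1.45, -1.67 and -1.17 with GR24, -1.49, -1.29 and -1.35 with pinosylvin and -1.65, -1.89 and -1.53 with resveratrol. The groups of each compound overlapped with the control. The log2 fold change was 0.06 for GR24 (-0.23 to 0.36, adjusted p = 0.727), 0.12 for pinosylvin (-0.18 to 0.41, adjusted p = 0.640) and -0.19 for resveratrol (-0.49 to 0.10, adjusted p = 0.400). No change of *Foxo1* was detectable with 3 arrays a group, and the intervals leave room for differences of up to 0.49 on this scale.

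*Foxo3* stood at -3.02, -2.93 and -2.73 in the control, -2.51, -2.34 and -2.19 with GR24, -2.59, -2.64 and -2.54 with pinosylvin and -3.02, -3.004 and -2.79 with resveratrol. All GR24 and all pinosylvin arrays lay above all control and resveratrol arrays. The gene was 1.46-fold higher with GR24 (log2 fold change 0.54, 95% interval 0.31 to 0.78, adjusted p = 0.0012), by 0.54 within each slide, and it was the only one of the 9 genes higher with GR24. Normexp brought this value to 0.31 (adjusted p = 0.00731), and the range of the adjusted p over all alternatives was 3.41e-05 to 0.0104. For pinosylvin the log2 fold change was 0.30 (0.06 to 0.53, adjusted p = 0.0847), 0.36 within slide 1 and 0.18 within slide 2. With the replicate number as a block the adjusted p for pinosylvin was 0.0081, without control replicate 3 it was 0.0473 (log2 fold change 0.38), and over all alternatives it ranged from 0.00641 to 0.245. For resveratrol the log2 fold change was -0.05 (-0.28 to 0.19, adjusted p = 0.845).

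*Klf15* encodes a Krüppel-like factor that glucocorticoids induce and that raises the breakdown of branched-chain amino acids. It stood at -3.12, -2.82 and -2.80 in the control and at -4.13, -4.60 and -4.37 with GR24, where it was well above background on 2 of 3 arrays. With pinosylvin it stood at -2.39, -2.55 and -2.32 and with resveratrol at -2.43, -2.54 and -2.37. All GR24 arrays lay below, and all pinosylvin and resveratrol arrays above, every control array. *Klf15* was 2.74-fold lower with GR24 (log2 fold change -1.46, -1.74 to -1.17, adjusted p = 4.5e-06), by -1.40 within slide 1 and -1.57 within slide 2. It was 1.41-fold higher with pinosylvin (0.49, 0.20 to 0.78, adjusted p = 0.0267) and 1.38-fold higher with resveratrol (0.46, 0.18 to 0.75, adjusted p = 0.0335).

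The size of the fall of *Klf15* with GR24 depends on how the background was treated, and the cause was not tested. Normexp with the 75th percentile gave -0.62 (adjusted p = 5.96e-06), and the deposited table gave -0.84 (adjusted p = 1.02e-05). The rises with the stilbenes were near the threshold. For pinosylvin the adjusted p was 0.0952 without control replicate 1 and 0.0786 and 0.0805 without pinosylvin replicates 1 and 3, with fold changes of 0.39, 0.48 and 0.44, and over all alternatives it ranged from 0.00591 to 0.119. For resveratrol it was 0.120 and 0.0538 without control replicates 1 and 2 and 0.0896, 0.0567 and 0.1004 without resveratrol replicates 1, 2 and 3, with fold changes of 0.36, 0.51, 0.46, 0.51 and 0.42, and it ranged from 0.00366 to 0.120. Normexp with the 75th percentile gave 0.32 for pinosylvin (adjusted p = 0.00591) and 0.27 for resveratrol (adjusted p = 0.0164).

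Of 25 further genes of the Foxo family and of known Foxo targets, 21 were tested. With GR24 10 were higher and 1 was lower, so 11 of 21 passed, where 57.1% of all tested probes did (31.5% higher and 25.5% lower; median 0.20; 0.21 within slide 1 and 0.20 within slide 2). Among them were *Insr*, the insulin receptor gene (log2 fold change 1.25, adjusted p = 5.25e-05; 0.70 with normexp and the 75th percentile), the autophagy gene *Gabarapl1* (0.73, adjusted p = 7.53e-05), the cell cycle inhibitor gene *Cdkn1b* (0.64, adjusted p = 0.000146) and the mitophagy receptor gene *Bnip3l* (0.56, adjusted p = 0.000138). *Ctsl*, which encodes the lysosomal protease cathepsin L, was the 1 lower gene at -0.37.

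With pinosylvin 8 of the 21 were higher and 0 lower (8.28% and 8.27% of all tested probes; median 0.26), and with resveratrol 5 were higher and 0 lower (7.99% and 8.99%; median 0.19). At an unadjusted p under 0.05 in limma, 0 were lower with pinosylvin and 1 with resveratrol. *Gadd45a*, a stress gene of growth arrest, was higher with pinosylvin (1.02, adjusted p = 0.000783) and with resveratrol (0.63, adjusted p = 0.0124). *Sesn3*, a sestrin that restrains growth signalling, was higher with pinosylvin (0.79, adjusted p = 0.00239) and with resveratrol (1.30, adjusted p = 0.000112), and normexp with the 75th percentile brought these values to 0.48 and 0.72. *Gadd45a* with resveratrol had an adjusted p of 0.0511 without resveratrol replicate 1. With the replicate number as a block 9 genes passed for resveratrol, 8 higher and 1 lower. With that block 6768 of all 24278 tested probes passed in place of 4123. *Foxo6*, *Sesn1* and *Pik3ip1* had no named probe, and *Pdk4* was not tested.

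Of 18 genes that answer to glucocorticoids or to *Klf15*, 16 were tested. With GR24 9 were higher and 3 lower, where 31.5% and 25.5% of all tested probes were (median 0.42; 0.36 within slide 1 and 0.43 within slide 2), and the genes did not move as 1 block. *Mt1*, a metallothionein gene that metals also induce, was higher at 2.42 (adjusted p = 1.9e-08) and *Sgk1*, a kinase gene, at 1.19 (adjusted p = 5.9e-08). *Tsc22d3*, which encodes the leucine zipper protein GILZ, was lower at -1.27 (adjusted p = 6.87e-07). *Bcat2*, the branched-chain aminotransferase gene, was lower at -1.20 (adjusted p = 1.03e-05). Over the other ways of processing, *Bckdha*, another branched-chain gene of the list, lay above 0 with GR24 (0.50 to 0.65). *Bcat2* lay below 0 with pinosylvin (-0.35 to -0.26) and resveratrol (-0.27 to -0.19), where *Klf15* was higher. A link of these genes to *Klf15* was not tested. Pinosylvin had 4 higher and 1 lower (8.28% and 8.27% of all tested probes) and resveratrol 3 higher and 1 lower (7.99% and 8.99%), at medians of 0.12 and 0.05. *Sgk1* was higher with both (0.89, adjusted p = 4.47e-06, and 0.78, adjusted p = 2.2e-05).

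With pinosylvin *Bckdha*, a subunit gene of the branched-chain keto acid dehydrogenase, was higher at 0.56 (adjusted p = 0.0484). That call was lost without control replicates 1, 2 and 3 (adjusted p = 0.0654, 0.0693 and 0.152), without pinosylvin replicates 1 and 2 (0.157 and 0.153), without GR24 replicates 1 and 2 (0.0652 and 0.0615) and without resveratrol replicates 1 and 2 (0.0615 and 0.0625). With resveratrol *Cebpb*, a transcription factor gene, was higher at 0.58 (adjusted p = 0.000785). Over the other ways of processing *Cebpb* lay at 0.86 to 0.96 with GR24 and at 0.37 to 0.45 with pinosylvin. The count of 5 for pinosylvin was 3 without control replicate 2 or GR24 replicate 1 or 2, and 9 with the replicate number as a block, 7 higher and 2 lower. With that block 6946 of all 24278 tested probes passed in place of 4019. *Zbtb16* and *Prodh* were not tested.

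The myostatin system includes the only one of the 10 genes that could not be tested. *Mstn*, the myostatin gene, gave -7.28, -6.74 and -5.66 in the control, -7.11, -6.73 and -6.72 with GR24, -7.26, -6.91 and -6.80 with pinosylvin and -7.35, -7.29 and -7.52 with resveratrol. On none of the 12 arrays was it well above background, so no fold change is given. The lowest signals well above background lay between -6.29 and -5.21 on these arrays, and the order of the groups in these *Mstn* values cannot be read.

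*Acvr2b* encodes the activin type II receptor that binds myostatin, activins and their relative *Gdf11*. It stood at -0.12, -0.30 and -0.64 in the control, -1.03, -1.28 and -1.20 with GR24, -0.25, -0.12 and -0.39 with pinosylvin and -0.43, -0.60 and -0.66 with resveratrol. Each GR24 array lay below each of the 9 others. The gene was 1.76-fold lower with GR24 (log2 fold change -0.82, -1.12 to -0.52, adjusted p = 0.000395), by -0.95 within slide 1 and -0.56 within slide 2. The other compounds gave 0.10 (-0.20 to 0.40, adjusted p = 0.708) for pinosylvin and -0.21 (-0.51 to 0.09, adjusted p = 0.352) for resveratrol. Within slides 1 and 2 the difference was 0.02 and 0.25 for pinosylvin and -0.30 and -0.02 for resveratrol. Over all alternatives it ranged from -0.05 to 0.21 for pinosylvin and from -0.35 to -0.09 for resveratrol. The lowest adjusted p was 0.359 for pinosylvin and 0.0703 for resveratrol.

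*Fst* had the largest change of the 9 genes with GR24 and with resveratrol. Its brighter probe, printed in 10 spots per array, stood at 6.08, 6.10 and 5.99 in the control and at 3.73, 3.77 and 3.68 with GR24. It stood at 5.99, 5.97 and 5.69 with pinosylvin and at 4.81, 5.09 and 4.82 with resveratrol. The resveratrol arrays lay between the GR24 arrays and all others, with no overlap, and the pinosylvin arrays lay just below the lowest control array or farther down. The group means and SDs were 6.06 ± 0.055 (SD, n = 3) for the control, 5.88 ± 0.17 for pinosylvin, 4.91 ± 0.16 for resveratrol and 3.73 ± 0.047 for GR24. *Fst* was 5.02-fold lower with GR24 (log2 fold change -2.33, -2.55 to -2.11, adjusted p = 1.95e-08) and 2.22-fold lower with resveratrol (-1.15, -1.37 to -0.93, adjusted p = 4.93e-05).

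In that order of levels only the control and pinosylvin did not differ past the threshold, at -0.17 (-0.39 to 0.05, adjusted p = 0.286). Without pinosylvin replicate 3 this difference of *Fst* was -0.076 (adjusted p = 0.642), and it passed with normexp and quantile normalization (-0.27, adjusted p = 0.0466), where the adjusted p ranged from 0.0466 to 0.642 over all alternatives. Within slide 1 and slide 2 *Fst* differed by -2.34 and -2.31 for GR24, by -1.14 and -1.17 for resveratrol and by -0.11 and -0.31 for pinosylvin. The other probe of *Fst* stood at 5.19, 5.15 and 5.34 in the control and at 2.68, 2.70 and 2.72 with GR24, and it gave -2.53 for GR24, -1.21 for resveratrol and -0.22 for pinosylvin (-0.41 to -0.03, adjusted p = 0.106). Both probes of *Fst* thus placed the 4 groups in the same order.

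Of 25 further genes of the myostatin and activin pathway 20 were tested. With GR24 8 were lower and 4 higher, so 12 of 20 passed, where 57.1% of all tested probes did (25.5% lower and 31.5% higher). The median was -0.16, with -0.17 within slide 1, -0.21 within slide 2 and -0.045 in the deposited table. The ligand genes *Inhba* (log2 fold change -1.32, adjusted p = 5.77e-07), *Gdf11* (-1.16, adjusted p = 2.67e-08) and *Inhbb* (-0.98, adjusted p = 1.84e-06) were lower beside their receptor gene *Acvr2b* and their inhibitor gene *Fst*. *Smad7*, which encodes an inhibitor of the pathway inside the cell, was higher at 0.90 (adjusted p = 9.15e-06). *Acvr2a*, which encodes the other type II receptor, was higher at 0.57 (adjusted p = 0.0147), 0.31 with normexp and the 75th percentile, and 0.44 and 0.43 without control replicate 1 and GR24 replicate 2 (adjusted p = 0.0610 and 0.0615). So the genes of these ligands, of *Acvr2b* and of the extracellular inhibitor were lower, and those of *Acvr2a* and the intracellular inhibitor were higher.

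With pinosylvin 3 genes of the pathway were higher and 2 lower (8.28% and 8.27% of all tested probes; median 0.05), and with resveratrol 3 were higher and 1 lower (7.99% and 8.99%; median -0.05; 0.04 within slide 1 and -0.13 within slide 2). *Wfikkn1*, which encodes a protein that binds myostatin and *Gdf11*, was higher with both (0.68, adjusted p = 0.00118, and 0.58, adjusted p = 0.00332, the latter 0.37 with normexp and the 75th percentile). *Smad2*, a carrier of the signal to the nucleus, was lower with pinosylvin (-0.47, adjusted p = 0.006), and *Smad7* was higher with pinosylvin (0.46, adjusted p = 0.00541) and with resveratrol (0.63, adjusted p = 0.000899). The median for resveratrol was above 0 with quantile normalization, with or without normexp, and in the deposited table, and below 0 with normexp and the 75th percentile, so it has no settled sign. The count of 5 for pinosylvin was 3 without control replicate 2 or pinosylvin replicate 3 and 8 with the replicate number as a block, and the count of 4 for resveratrol was 7 with that block. With the block 6946 of all 24278 tested probes passed for pinosylvin in place of 4019, and 6768 for resveratrol in place of 4123. *Wfikkn2*, *Ski* and *Skil* had no named probe, and *Inha* and *Acvr1c* were not tested.

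**Figure D2:**
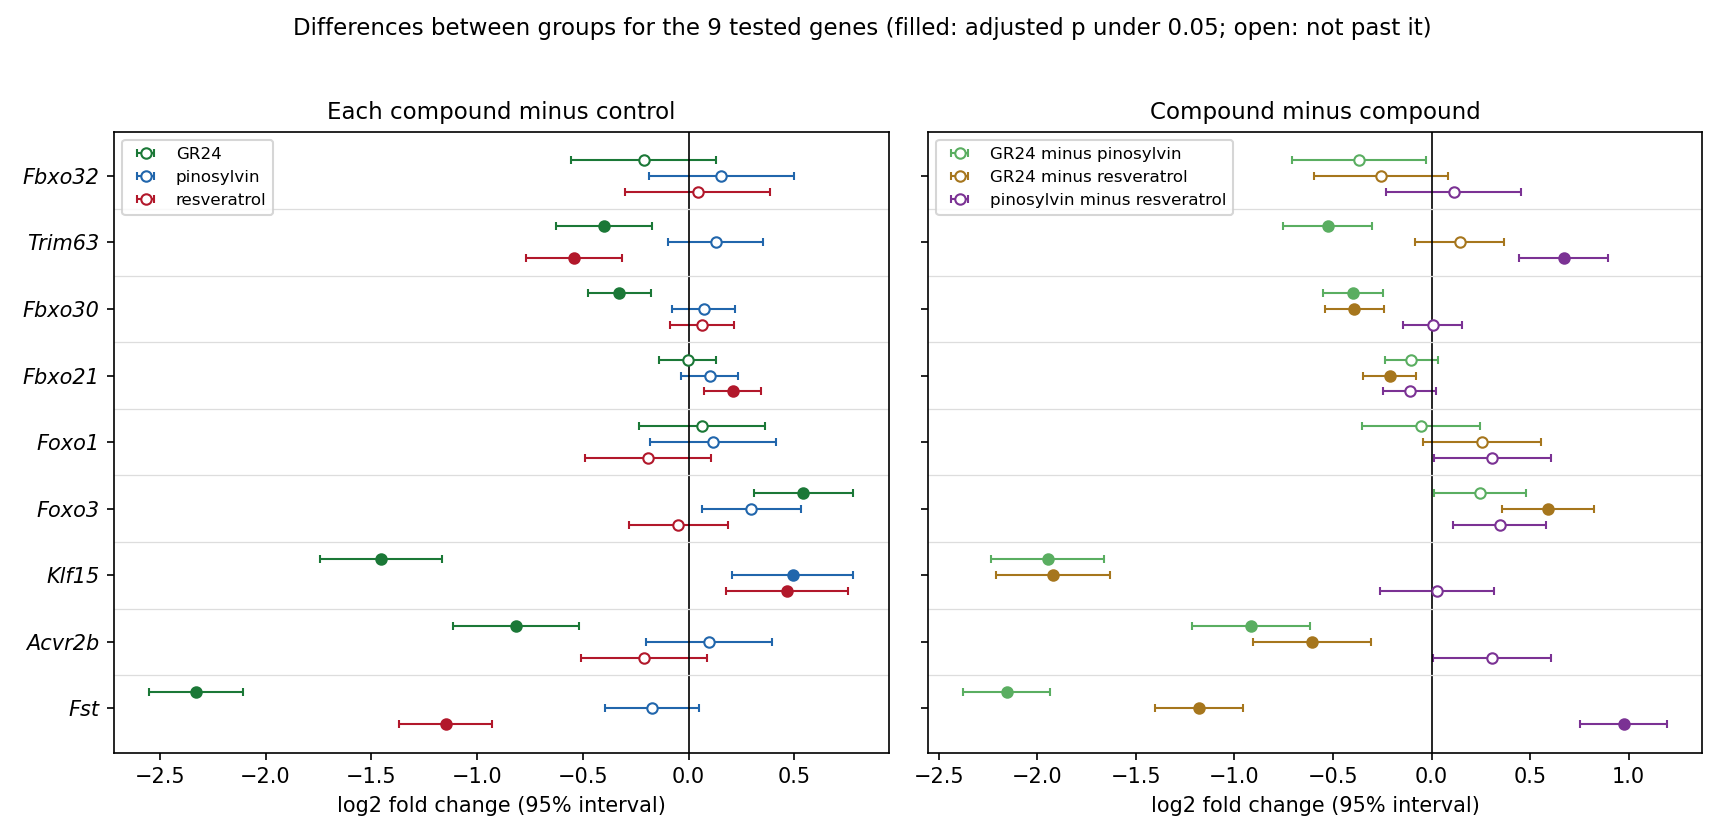
Log2 fold change with its 95% interval for the 9 tested genes, each compound minus the control on the left and compound minus compound on the right, with filled points past an adjusted p of 0.05. *Fst*, *Klf15* and *Acvr2b* lie farthest below 0 for GR24, at -2.33, -1.46 and -0.82, and *Klf15* lies above 0 for pinosylvin and resveratrol, at 0.49 and 0.46.

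The stilbenes were compared directly, since both were given at 60 µM for 24 h. Of the 9 genes, 2 were higher with pinosylvin than with resveratrol and 0 were lower, against 14.5% of all tested probes, 7.68% higher and 6.85% lower. *Fst* was 1.97-fold higher with pinosylvin (log2 fold change 0.98, 95% interval 0.75 to 1.20, adjusted p = 0.000158), and *Trim63* was 1.59-fold higher (0.67, 0.44 to 0.90, adjusted p = 0.00176). The arrays of these groups did not overlap for either gene. That held for 7 of the 10 genes, among them *Mstn*, which was not tested, and for 33.5% of all tested probes. Within slides 1 and 2 the differences were 1.03 and 0.87 for *Fst* and 0.72 and 0.57 for *Trim63*. Normexp with the 75th percentile gave 0.42 for *Trim63* (adjusted p = 0.00637), and its adjusted p ranged from 0.0012 to 0.0112 over all alternatives. Between the same groups 7 of the 11 myotube markers were higher with pinosylvin (median 0.40) and all 5 genes of cycling cells were lower (median -0.72), and their part in this result was not tested.

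For the other 7 genes the stilbenes did not differ past the threshold. The difference was 0.35 for *Foxo3* (0.11 to 0.58, adjusted p = 0.0541), 0.31 for *Foxo1* (0.01 to 0.61, adjusted p = 0.163) and 0.31 for *Acvr2b* (0.01 to 0.61, adjusted p = 0.165). It was 0.11 for *Fbxo32* (-0.23 to 0.45), -0.11 for *Fbxo21* (-0.25 to 0.03), 0.03 for *Klf15* (-0.26 to 0.32) and 0.01 for *Fbxo30* (-0.14 to 0.16). These intervals do not show that the compounds act alike on these genes. *Foxo3* had an adjusted p of 0.0406 without control replicate 3, 0.042 without GR24 replicate 3 and 0.0484 without resveratrol replicate 3, at differences of 0.35, 0.35 and 0.42, and over all alternatives it ranged from 0.00353 to 0.209. With the replicate number as a block *Foxo3* (adjusted p = 0.00482) and *Acvr2b* (adjusted p = 0.0491, where the alternatives ranged up to 0.405) passed as well, which made 4 genes, and 6323 probes passed in place of 3528. That number of probes was 2148 without pinosylvin replicate 2 and 2237 and 2312 without resveratrol replicates 2 and 3. At an unadjusted p under 0.05 in limma, 0 of the 9 genes were lower with pinosylvin.

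GR24 was set against each stilbene in the same way. Against pinosylvin 5 of the 9 genes were lower and 0 higher, where 56.4% of all tested probes passed, 26.8% lower and 29.6% higher, and the median over the 9 genes was -0.40. These were *Fst* (-2.16, adjusted p = 4.3e-08), *Klf15* (-1.95, adjusted p = 6.14e-07), *Acvr2b* (-0.91, adjusted p = 0.000191), *Trim63* (-0.53, adjusted p = 0.00119) and *Fbxo30* (-0.40, adjusted p = 0.000528). The other probe of *Fbxo30* gave -0.27 (adjusted p = 0.0810). Normexp with the 75th percentile brought *Klf15* to -0.94 and *Trim63* to -0.33. *Fbxo32* at -0.37 (-0.71 to -0.03, adjusted p = 0.0641) and *Foxo3* at 0.25 (0.01 to 0.48, adjusted p = 0.0707) did not pass. At an unadjusted p under 0.05 in limma, 1 gene, *Foxo3*, was higher. With the replicate number as a block both passed, with an adjusted p of 0.0292 for *Fbxo32* and 0.00674 for *Foxo3*. *Fbxo32* had an adjusted p of 0.0475 and 0.00765 without control replicates 1 and 3, at the same difference, and *Foxo3* had 0.0313 without GR24 replicate 1, at 0.33, where the ranges over all alternatives were 0.00765 to 0.278 and 0.00578 to 0.220.

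Against resveratrol 5 genes were lower and 1 was higher with GR24, where 51.4% of all tested probes passed, 23.9% lower and 27.4% higher, and the median was -0.26. *Klf15* was lower at -1.92 (adjusted p = 8.79e-07), *Fst* at -1.18 (adjusted p = 4.26e-06), *Acvr2b* at -0.61 (adjusted p = 0.00323), *Fbxo30* at -0.39 (adjusted p = 0.000672) and *Fbxo21* at -0.21 (adjusted p = 0.0132), and *Foxo3* was higher at 0.59 (adjusted p = 0.000833). Normexp with the 75th percentile brought *Klf15* to -0.89, which is nearer 0 than *Fst* at -1.18, and *Foxo3* to 0.37, and the mean of both probes brought *Fbxo30* to -0.24, where its other probe gave -0.09 (adjusted p = 0.591) with arrays that overlapped. *Trim63*, lower than the control with both compounds, did not differ between them past the threshold (0.14, -0.08 to 0.37, adjusted p = 0.275). *Fbxo21* lost its call without resveratrol replicate 2 (-0.17, adjusted p = 0.0556) and in the deposited table (-0.08, adjusted p = 0.341), with a range from 0.00371 to 0.341. Its other probe gave -0.09 (adjusted p = 0.510), with arrays that overlapped, and the mean of both probes gave -0.15 (adjusted p = 0.115). *Fbxo32*, at -0.26 (adjusted p = 0.196), passed without control replicate 3 (adjusted p = 0.0441, range 0.0441 to 0.488), and *Foxo1*, at 0.26 (adjusted p = 0.139), passed without GR24 replicate 2 (0.38, adjusted p = 0.0403, range 0.0403 to 0.424) and with the slide as a block (adjusted p = 0.0442).

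Among themselves the 9 genes varied in different ways over the 12 arrays, which share 4 treatments, so the correlations that follow describe these arrays only. *Fbxo30* and *Klf15* had the highest Pearson r of the pairs, 0.949, followed by *Acvr2b* and *Fst* at 0.907 and *Fbxo30* and *Acvr2b* at 0.893. *Fbxo30* and *Foxo3* had the lowest, -0.780. *Fbxo32* and *Trim63*, the ligase genes most often measured together in atrophy, had an r of 0.437.

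Over the 12 arrays, each gene was also set against 10735 other named genes. The pattern most like that of *Fst* was that of *Arhgdib* (r = 0.996), *Cdca7* (r = 0.993) and *Aqp1* (r = 0.992), and for *Acvr2b* it was *Flnc* (r = 0.993), *Ddb1* (r = 0.983) and *Schip1* (r = 0.978). For *Klf15* it was *Plaat1* (r = 0.991), *Gk* (r = 0.985) and *Tp53bp1* (r = 0.985). For *Fbxo30* it was *Bmp2* (r = 0.985), *Dnajc19* (r = 0.983) and *Epha4* (r = 0.980). For *Trim63* the nearest were *Plekha4* (r = 0.955), *Trak1* (r = 0.943) and *Lrp4* (r = 0.934), and for *Fbxo21* *Pkdcc* (r = 0.951), *Rbks* (r = 0.938) and *Ift22* (r = 0.933). For *Foxo3* they were *Aak1* (r = 0.933), *Dcp2* (r = 0.925) and *Yy1* (r = 0.918), for *Foxo1* *Nrg4* (r = 0.913), *Cntn6* (r = 0.877) and *Rgs14* (r = 0.871), and for *Fbxo32* *Gtpbp2* (r = 0.881), *Cnp* (r = 0.860) and *Col4a1* (r = 0.855). The nearest gene of *Fbxo32* and *Foxo1* was thus less near than that of *Fst* or *Acvr2b*.

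Promoter sequence from RefSeq (rat assembly GRCr8) was searched for letters that Foxo factors, the glucocorticoid receptor, Smad proteins and the myogenic factors are known to bind. The table listed 6 of the 10 genes: *Trim63*, *Fbxo30*, *Fbxo21*, *Foxo1*, *Klf15* and *Acvr2b*. In the 250 bases before the listed start, on both strands, the Foxo core GTAAACA was present in 3.21% of the 33469 promoters of the table, the glucocorticoid receptor hexamer TGTTCT in 17.5%, its full palindromic site in 0.012%, the Smad box CAGACA in 17.2% and the E-box CANNTG in 65.5%. Of the 6 genes only *Trim63* held the Foxo core and the hexamer, and its window held 3 E-boxes. The Smad box was present in *Fbxo30*, where it begins at the first base of the annotated gene, and 1 E-box each in *Fbxo21* and *Klf15*, where the whole window of *Klf15* lies inside the annotated gene. None of these letters was in the windows of *Foxo1* and *Acvr2b*, which says only that they are not in these bases. Most of the windows of *Fbxo30* and *Acvr2b* also lies inside the annotated gene, and the window of *Trim63* ends inside it.

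The promoter of *Trim63* is shown because that ligase gene was lower with GR24 and resveratrol and because its window holds both motifs side by side. The hexamer lies at -211 to -206 from the listed start, and the Foxo core, read on the other strand, lies next to it at -205 to -199 with no overlap. Both motifs occur somewhere in the window in 0.621% of all promoters of the table. The 223 bases at chr5:151816986-151817208 on the plus strand, which end before the annotated gene start, are given with the hexamer and the core first and then the E-boxes in capitals.
Trim63: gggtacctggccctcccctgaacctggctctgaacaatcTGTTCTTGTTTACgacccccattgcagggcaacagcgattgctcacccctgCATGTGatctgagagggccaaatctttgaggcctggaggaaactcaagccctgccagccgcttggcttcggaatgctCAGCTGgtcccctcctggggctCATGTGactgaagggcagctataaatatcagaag
A match describes the letters and is not a measured site, and binding was not tested.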

How the data were processed

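The authors' deposited raw files hold intensity, and their deposited series table holds log2 values. The submitters' notes name Agilent Feature Extraction 12.0.0.7. The log2 processed signal was averaged over the spots of a probe, and then taken relative to the 75th percentile on that array. A probe was tested where 1 or more groups had it well above background on all 3 arrays, 24278 of 45598. A gene was named through the RefSeq accession of its probe, without the version. limma 3.58.1 in R 4.3.3 fitted all 12 arrays in 1 model with 6 comparisons, and p-values were adjusted over all tested probes by the Benjamini-Hochberg method. The 10 genes and the gene lists were chosen with earlier results of these data known.

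Alternatives were quantile normalization, normexp background correction with an offset of 50, the deposited table, other filters, a block for replicate number or for slide, slide 1 alone, other eBayes settings, outlier spots kept, the mean of the probes of a gene, the 6 arrays compared alone and each array left out. Normexp used the median signal because the files lack the mean signal that the plan named. How the deposited table was normalized is not stated. Its columns had a correlation of 0.9994 to 0.9997 with the log2 median signal. The main fit held no block for the replicate number, since the methods name none. All 18 same-number pairs between groups had a correlation over 0.1 (0.191 to 0.744). So had 12 of the 36 other-number pairs, up to 0.475, all between replicates 1 and 2, so the values separate the slides but not replicates 1 and 2. The alternatives for the gene lists were added after the data were seen. Apart from the lists of cell type markers, the list genes named are the 4 of each list with the largest changes past the threshold with GR24 and the 2 with each stilbene. The exceptions with GR24 are *Ctsl*, *Trim54*, *Acvr2a*, *Bckdha* and *Cebpb*. With pinosylvin they are *Smad7*, *Bcat2* and *Cebpb*, and with resveratrol *Bcat2*. These were named after their values were seen. The cell type markers were not named by that rule. The number of arrays limits the precision.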

Additional observations from a re-analysis of the deposited data

How the results depend on the processing

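Each fold change of the 9 tested genes was computed again in 13 other ways and without each of the 12 arrays. In 696 comparisons with the other ways, 659 kept their call, 14 lost it and 23 gained it, and in 648 comparisons with an array left out the numbers were 620, 18 and 10. No difference past the threshold turned direction, while differences not past it changed sign in 15 and 10 of these comparisons, such as *Fbxo32* for resveratrol against control (-0.16 to 0.17) and *Foxo1* for GR24 against control (-0.064 to 0.18). Where a number moved, the cause was not tested, unless a probe was not tested under the filter.

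For pinosylvin against control the number of changed genes of the 10 was 1, and it was 2 with quantile normalization, with normexp and quantile normalization, with the replicate block and with the slide block. It was 0 without the filter, with the filter that asked for all 12 arrays, where *Klf15* was not tested, and with the 6 arrays compared, and 0 to 2 with an array left out. For resveratrol against control it was 4, 2 without the filter and 2 to 4 with an array left out. For pinosylvin against resveratrol it was 2, and 4 with the replicate block and with the slide block. For GR24 against control it was 6, and 5 to 7 under all alternatives.

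The number of changed probes was 4019 for pinosylvin against control, 2409 without the filter, 6946 with the replicate block, 7074 with the slide block and 2479 with the 6 arrays. For resveratrol against control it was 4123, and 2680, 6768 and 6869 in the first 3 of these ways. For pinosylvin against resveratrol it was 3528, and 1975, 6323 and 6444 in these ways, and 2148 to 3683 with an array left out.

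With pinosylvin 5 genes of the myostatin and activin list passed, 3 without the filter, on slide 1 alone and with the 6 arrays, 8 with the replicate block and with the slide block, and 3 to 5 with an array left out. Of the glucocorticoid and *Klf15* list 5 passed, 3 without the filter and with the 6 arrays, 9 with the replicate block, 11 with the slide block, 8 with trend and robust settings, and 3 to 5 with an array left out. With resveratrol 5 genes of the ubiquitin ligase list passed, 1 without the filter and with the 6 arrays, and 0 to 5 with an array left out. Of the Foxo list 5 passed, 9 with the replicate block and with the slide block and 2 with the 6 arrays. Of the myostatin and activin list 4 passed, and 7 with the replicate block and with the slide block.

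The replicate block changed the calls of *Foxo3* for pinosylvin against control (adjusted p = 0.0081), GR24 against pinosylvin (0.00674) and pinosylvin against resveratrol (0.00482), of *Fbxo32* for GR24 against pinosylvin (0.0292) and of *Acvr2b* for pinosylvin against resveratrol (0.0491), and of no other of the 9 genes. With the slide block *Foxo1* passed for GR24 against resveratrol (0.0442), which made 7 changed genes in place of 6, and for pinosylvin against resveratrol (0.0436). With 3 arrays a group from cells of 1 line, the results cover no other line, dose or time.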
